A study of Mus musculus with 2 samples.

Results

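The 48 genes described here encode lysosomal hydrolases and their cofactors, lysosomal membrane proteins, regulators of lysosome genes and core autophagy proteins. They were taken by symbol from a list of such genes and are 48 of 23420 gene rows in the count table. They comprise 10 cathepsins, 19 other hydrolases and cofactors, 7 membrane proteins, 9 autophagy genes, and Grn with the transcription factor genes Tfeb and Tfe3. Every one of them had enough reads to be tested.

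Lysosomes are acidic compartments in which cathepsins cut proteins, glycosidases and sulfatases dismantle sugar chains, and lipases and their cofactors break down membrane lipids. Autophagy delivers a cell's own material to them, and phagocytosis delivers material from outside. The retinal pigment epithelium (RPE) relies on both routes, because it engulfs the shed tips of photoreceptor outer segments every day throughout life. TFEB and TFE3 are related transcription factors that enter the nucleus when the kinase mTOR is inactive and bind a palindromic E-box shared by many lysosome genes.

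RNA was sequenced from RPE-choroid, the pigment epithelium together with the vascular coat behind it, of untreated mice aged 11 to 13 months. One group is labelled AhR -/-, strain B6.129-AhR tm1Bra/J, which carries a targeted allele of Ahr, the gene of a transcription factor that responds to dioxin-like and dietary ligands (the aryl hydrocarbon receptor). The other is labelled C57BL6/J wild type, with 3 animals per group and the RNA of 2 eyes pooled per polyA-selected library. The labels name different strains for the groups and no shared litters, so genotype and strain cannot be told apart.

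Gene counts per library ranged from 18058725 to 28692624, and 15796 genes were tested. Levels are given as CPM, counts scaled to a common library total and adjusted by the trimmed mean of M values, and fold changes as log2 of knockout-labelled over wild type. Ahr itself stood at 41.4, 45.4 and 40.6 CPM in the knockout-labelled libraries and at 19.7, 20.2 and 26.0 CPM in wild type. It was thus higher in all 3 libraries labelled knockout (log2 fold change 0.95, SE 0.16, adjusted p = 0.0991 in edgeR's quasi-likelihood test), and the labels are used below as given. All 10 RPE markers were detected, and their summed level was 37767, 21514 and 23469 CPM in the knockout-labelled libraries and 29057, 40031 and 34561 CPM in wild type. In bulk tissue of this kind, fewer cells of a type and less RNA per cell cannot be told apart.

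Promoter sequences are shown first, since the TFEB-type E-box is what many of these genes share at the DNA level. Of the 48 genes, 42 had an entry among the RefSeq promoter windows of GRCm38.p6, each running from 250 bases before to 50 bases after the start. Ctsb, Ctsh, Asah1, Atg12, Becn1 and Map1lc3a had none. Both strands were searched. The 8-base palindrome TCACGTGA lay in the windows of 5 genes, printed here 5′ to 3′ on the gene's strand with the palindrome in capitals and 20 bases either side. They are Cln3 (chr7:126583331-126583378, minus strand, 122 bases before the start), Ctsa (chr2:164833740-164833787, plus strand, 13 bases before), Ctsd (chr7:142387899-142387946, minus strand, 99 bases before), Gla (chrX:134601206-134601253, minus strand, 228 bases before) and Mcoln1 (chr8:3500453-3500500, plus strand, 46 bases before). Ctsa and Gla each had a further copy in the window.
Cln3: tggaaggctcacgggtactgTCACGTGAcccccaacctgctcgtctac
Ctsa: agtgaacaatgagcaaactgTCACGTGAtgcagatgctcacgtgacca
Ctsd: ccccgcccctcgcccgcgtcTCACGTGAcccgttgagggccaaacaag
Gla: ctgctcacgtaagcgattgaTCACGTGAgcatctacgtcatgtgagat
Mcoln1: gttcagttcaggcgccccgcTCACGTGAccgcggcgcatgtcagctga

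The palindrome lay in 10.4% of the windows of these genes, in 0.974% of all 32851 windows and in 1.23% of coding-gene windows. Its 7-base form TCACGTG, which the palindrome contains, lay in the windows of 12 genes, namely Arsa, Atg7, Cln3, Ctsa, Ctsd, Gaa, Gla, Glb1, Lamp1, Mcoln1, Naglu and Sgsh. That is 25.0% of the genes' 48 windows against 3.77% of all windows and 4.39% of coding-gene windows. The window of Naglu (chr11:101070000-101070046, plus strand, 74 bases before the start) is shown because this gene is among those described with tests below.
Naglu: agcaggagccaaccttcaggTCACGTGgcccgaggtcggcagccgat

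A response element of the aryl hydrocarbon receptor, TNGCGTG, was searched in the same windows and lay in that of 1 gene, Ctsl (chr13:64370478-64370524, minus strand, 16 bases after the start). That is 2.08% of the genes' windows against 5.07% of all windows and 5.98% of coding-gene windows. Its core GCGTG lay in 39.6% of the genes' windows, in 32.4% of all windows and in 38.5% of the windows of coding genes. Counted by gene, that is 38.1% of the 42 against 41.4% of coding genes. A match here is a description of letters and not a binding site, and the motifs were chosen after the fold changes had been seen.
Ctsl: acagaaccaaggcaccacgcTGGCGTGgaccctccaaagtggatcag

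Per length of transcript, the genes covered nearly 3 orders of magnitude. Their median level was 29.4 RPKM (CPM per kilobase of exon), against 5.12 RPKM over 15639 genes with a known length, and 23 of the 48 lay in the top 10% of genes. Ctsd, the aspartic protease cathepsin D, which the RPE uses to degrade rhodopsin, stood at 2065, 1460 and 1519 RPKM in the knockout-labelled libraries and at 1560, 1932 and 1356 RPKM in wild type. Psap, the precursor of the saposins that help hydrolases reach sphingolipids, stood at 1824, 1223 and 1350 RPKM and at 1562, 2011 and 1627 RPKM in the same order. Ctsd was the higher of these 2 genes in all 3 knockout-labelled libraries and Psap in all 3 wild-type libraries. This split was not tested, and in wild-type animal 1 the 2 genes were almost level. Together they made up 36.5% to 43.5% of the summed CPM of all 48 genes.

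Below them came Ctss, a cysteine protease of antigen-presenting cells, with a level of 789, 734 and 647 RPKM in the knockout-labelled and 536, 821 and 446 RPKM in the wild-type libraries. It was under Psap and above Gpnmb in all 6 libraries, while Gpnmb exceeded Ctsb in 4 of 6, so the order of that neighbouring pair varied. Gpnmb, a glycoprotein of melanosomes and lysosomes, stood at 321, 282 and 324 RPKM and at 296, 328 and 165 RPKM, the lowest value being wild-type animal 3. Lamp1, an abundant glycoprotein that lines the lysosomal membrane, had levels of 193 ± 6.11 RPKM in knockout-labelled and 201 ± 21.1 RPKM in wild-type libraries (SD, n = 3 each). Among autophagy genes the highest level was that of Gabarap, a ubiquitin-like protein of the autophagosome membrane, at 237 ± 47.6 and 229 ± 27.2 RPKM (SD, n = 3 each). The cargo receptor gene Sqstm1 followed at 152 ± 8.39 and 152 ± 13.4 RPKM (SD, n = 3 each). Among the other hydrolases Hexa, the alpha subunit of beta-hexosaminidase, was next after Psap at 119 ± 17.6 and 132 ± 12.8 RPKM (SD, n = 3 each).

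At the low end, Tfe3 had a mean level of 2.40 RPKM over the 6 libraries, Galc, which encodes the enzyme that breaks down galactosylceramide, 3.67 RPKM, and Tfeb 5.34 RPKM. By class, the median level was 109.6 RPKM for the cathepsins, 26.8 for the other hydrolases and cofactors, 25.4 for the membrane proteins and 12.8 for the autophagy genes. Grn, the progranulin precursor that is processed in lysosomes, reached 63.6 RPKM, far above the transcription factor genes it is listed with here.

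**Figure D1:**
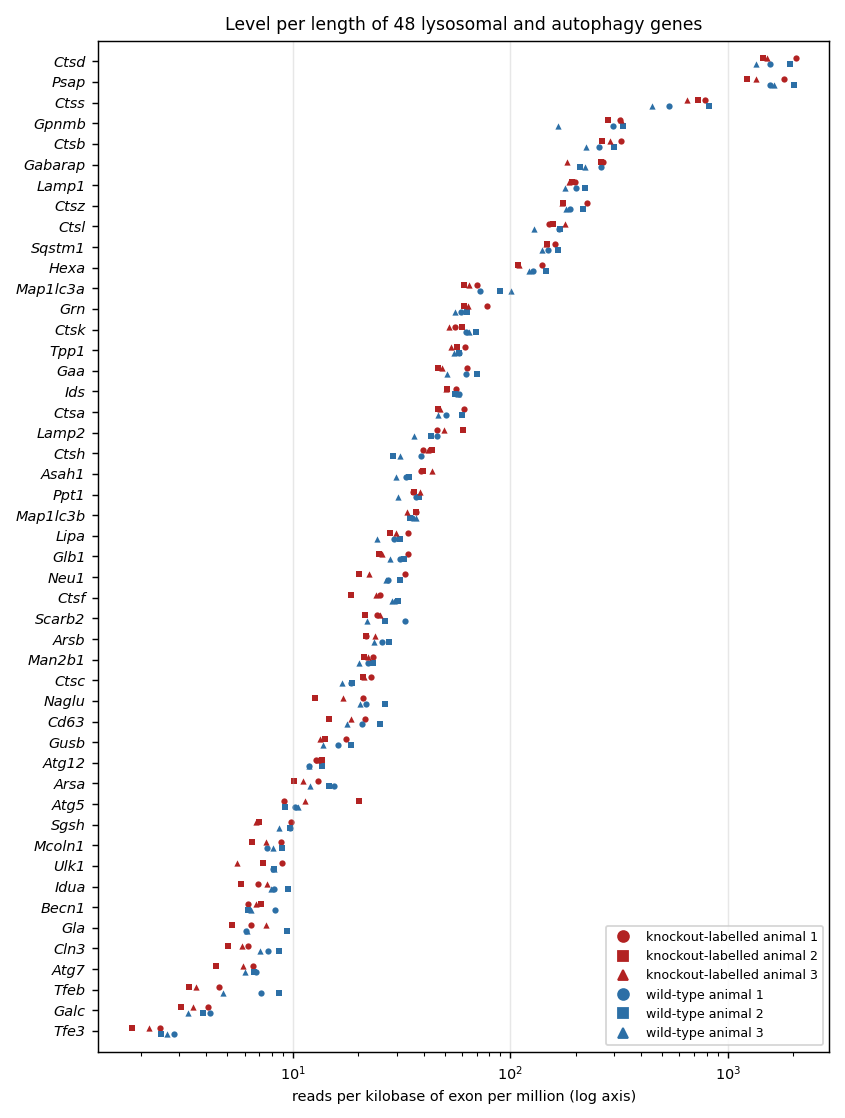
Level per length (RPKM, log axis) of each of the 48 genes in each of the 6 libraries, ordered by mean level, with one symbol per animal. The genes run from Ctsd and Psap at mean levels of 1649 and 1600 RPKM down to Tfe3 at 2.40 RPKM, and most genes have overlapping red (knockout-labelled) and blue (wild-type) points.

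The comparison of genotypes asked which of these genes differ in RPE-choroid between mice labelled AhR-deficient and wild type. None of the 48 passed the adjusted threshold of 0.05 in edgeR's quasi-likelihood test, in which 8 of all genes (0.0506%) did, and the smallest adjusted p among them was 0.185 (Tfeb). At an unadjusted p under 0.05 there were 8 of the 48 (16.7%) against 14.2% of all genes. Of these, 3 were higher (Ctsc, Ctsh and Asah1; 7.55% of all genes were called in that direction) and 5 were lower (Tfeb, Cln3, Naglu, Map1lc3a and Ctsf; 6.62% of all genes). Among the 48 the shares were 6.25% higher and 10.4% lower, the first under and the second over that of all genes. The second rests on 5 genes, and the difference was not tested. At an adjusted p under 0.05, DESeq2 called Tfeb alone (2.08% of the 48, against 3.25% of all genes in DESeq2). The exact test of edgeR (2.26% of all genes) and limma-voom (0.0823% of all genes) called none of the 48.

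For 11 of the 48 genes (22.9%) the 3 knockout-labelled values did not overlap the 3 wild-type values, against 20.0% of all genes. Of these, 4 were higher (Ctsc, Ctsh, Asah1 and Lamp2, with 10% of all genes in that direction) and 7 were lower (Tfeb, Tfe3, Cln3, Map1lc3a, Ctsf, Ctsk and Idua, with 9.96% of all genes). The median log2 fold change was -0.10, against 0.01 over all genes, with 30 genes below 0 and 18 above, and the single values ran from -0.83 to 0.44. Their median within-group SD was 0.18 on the log2 scale, against 0.26 over all genes and 0.15 over 155 other lysosome and autophagy genes.

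**Figure D2:**
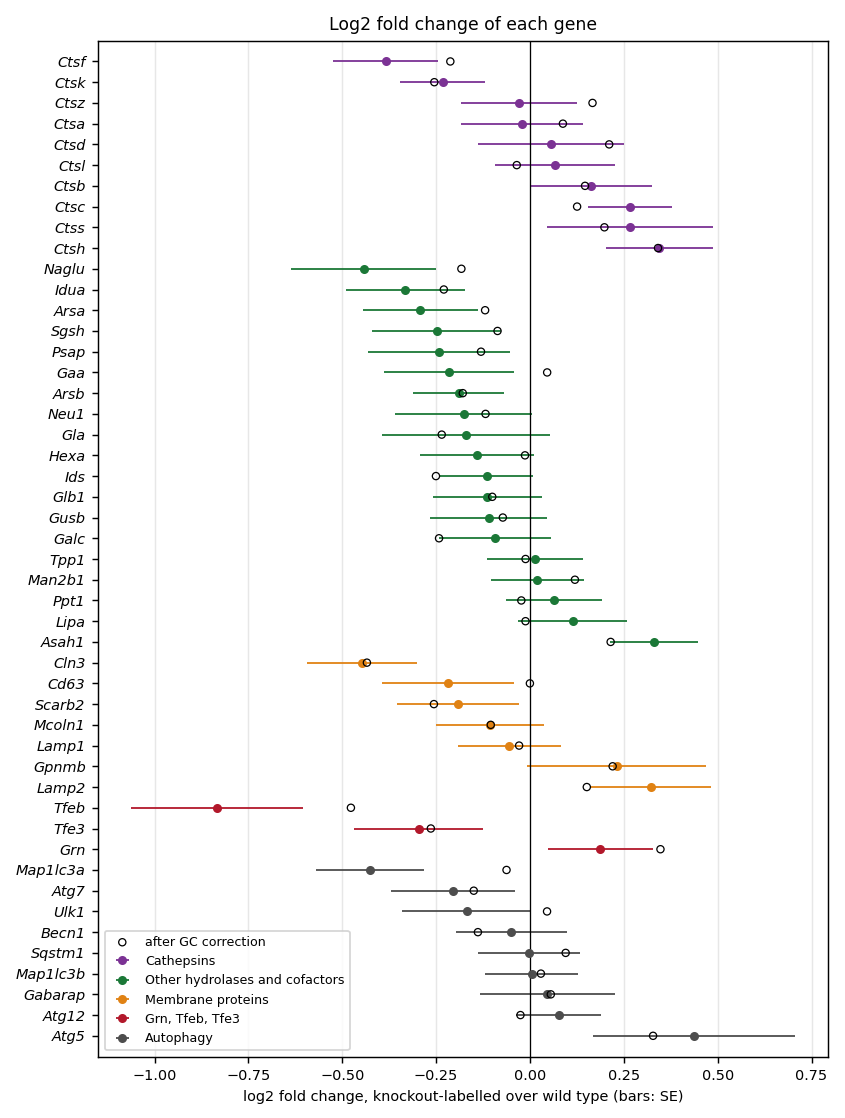
Log2 fold change of each gene, knockout-labelled over wild type, with its SE as a bar and colours for the 5 classes. Open circles give the fold change after correction for the GC content of the transcript. Tfeb lies farthest below 0 at -0.83, and most other bars reach or lie close to 0.

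Tfeb had the largest fold change of the 48. It stood at 25.9, 19.0 and 20.3 CPM in the knockout-labelled libraries and at 40.5, 48.8 and 27.2 CPM in wild type. All 3 knockout-labelled values lay below all 3 wild-type values, and wild-type animal 3 came nearest to them. The log2 fold change was -0.83 (SE 0.23, unadjusted p = 0.00501, adjusted p = 0.185 in edgeR's quasi-likelihood test), and it rested on 346 to 1180 reads per library. DESeq2 gave an adjusted p of 0.0380. Over the 17 alternative analyses the log2 fold change lay between -1.06 and -0.44 and the adjusted p between 0.0380 and 0.577. The transcript has a GC content of 63.2%, the highest of the 48 genes, and after GC correction the log2 fold change was -0.48 (adjusted p = 0.381 in edgeR's quasi-likelihood test). The gene lies at chr17:47737030-47792419 on the plus strand (GRCm38, GENCODE M21, as for all gene positions here).

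Tfe3, which encodes the related factor, stood at 22.7, 16.8 and 20.3 CPM in the knockout-labelled libraries and at 26.2, 22.9 and 24.4 CPM in wild type. The groups touched without overlapping, because knockout-labelled animal 1 and wild-type animal 2 were almost level. The log2 fold change was -0.30 (SE 0.17, adjusted p = 0.471 in edgeR's quasi-likelihood test) and -0.26 after GC correction. Grn stood at 235 ± 30.9 CPM in knockout-labelled and 207 ± 13.8 CPM in wild-type libraries (SD, n = 3 each), with a log2 fold change of 0.19. Its groups overlapped.

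The cathepsins went both ways, 6 lying above 0 and 4 below, and their median log2 fold change was 0.06. Ctsh, an aminopeptidase that also cuts inside proteins, stood at 179, 197 and 189 CPM in the knockout-labelled libraries and at 174, 131 and 140 CPM in wild type. The groups did not overlap, though wild-type animal 1 was within a few CPM of knockout-labelled animal 1. Ctsh had a log2 fold change of 0.34 (SE 0.14, adjusted p = 0.327 in edgeR's quasi-likelihood test), and it was 0.34 after GC correction too. Ctsc, the dipeptidyl peptidase that activates granule serine proteases in leukocytes, stood at 132.5, 122 and 124 CPM in the knockout-labelled libraries and at 108, 109 and 97.7 CPM in wild type. Every knockout-labelled value was above every wild-type value, with a log2 fold change of 0.27 (SE 0.11, adjusted p = 0.333 in edgeR's quasi-likelihood test) that was 0.13 after GC correction. Of the 10 neutrophil markers 5 could be tested, 4 of them above 0, and Ngp, Mpo and Elane were at 0 in every library. The list summed to 57.7 to 126 CPM in knockout-labelled and 6.25 to 12.6 CPM in wild-type libraries, and its part in the level of Ctsc was not tested.

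Ctsf, a cysteine protease, stood at 127, 93.8 and 121 CPM in the knockout-labelled libraries and at 150, 153 and 144 CPM in wild type. The wild-type libraries were close together and above all knockout-labelled ones, of which animal 2 was lowest. Ctsf had a log2 fold change of -0.38 (SE 0.14, adjusted p = 0.275 in edgeR's quasi-likelihood test) and -0.21 after GC correction. Ctsk, the collagen-cutting protease best known from osteoclasts, stood at 83.8, 90.8 and 78.8 CPM in the knockout-labelled libraries and at 94.3, 105 and 98.1 CPM in wild type. Here too the groups did not overlap, with a log2 fold change of -0.23 (SE 0.11, adjusted p = 0.395 in edgeR's quasi-likelihood test). The osteoclast and bone markers, nearly all Acp5, summed to 37.5 to 45.6 CPM in knockout-labelled and 22.8 to 37.2 CPM in wild-type libraries, with Bglap and Ibsp at 0 in every library. The 8 fibroblast markers summed to 8430 to 8933 and 9587 to 11509 CPM, with 7 of them below 0 and groups apart for Col1a1 and Col1a2, both lower. The part of either cell type in the level of Ctsk was not tested.

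For the most abundant cathepsins the groups overlapped. Ctsd had a level of 3953 ± 784 CPM in knockout-labelled and 3799 ± 687 CPM in wild-type libraries (SD, n = 3 each), which makes a log2 fold change of 0.06. Ctsb, a cysteine protease, had 1761 ± 181 and 1574 ± 234 CPM, and Ctsl, another of that family, had 1052 ± 93.0 and 1004 ± 150 CPM (SD, n = 3 each). Ctsa and Ctsz, both carboxypeptidases, had log2 fold changes of -0.02 and -0.03. Ctss ranged from 606 to 1115 CPM within wild type alone, with a log2 fold change of 0.27. The 14 macrophage markers summed to 2542, 2925 and 2661 CPM in the knockout-labelled libraries and to 2202, 3020 and 1987 CPM in wild type, most of it Lyz2. Without Lyz2 the other 13 summed to 1052, 759 and 746 CPM and to 840, 895 and 757 CPM. Within each group these 13 ranked the animals as Ctss did, though not across both groups together. The part of macrophages in the level of Ctss was not tested.

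Of the other hydrolases and cofactors, 14 lay below 0 and 5 above. Their median log2 fold change was -0.14 and it was -0.10 after GC correction. Naglu, which removes N-acetylglucosamine from heparan sulfate, stood at 55.6, 33.5 and 45.1 CPM in the knockout-labelled libraries and at 57.6, 70.9 and 54.2 CPM in wild type. Knockout-labelled animal 1 lay inside the wild-type range, so the groups overlapped. Naglu had a log2 fold change of -0.44 (SE 0.19, adjusted p = 0.348 in edgeR's quasi-likelihood test) and -0.18 after GC correction. Idua, which removes iduronic acid from the same chains, stood at 29.2, 24.4 and 32.0 CPM in the knockout-labelled libraries and at 34.6, 39.9 and 33.4 CPM in wild type. The groups did not overlap, with a log2 fold change of -0.33 (SE 0.16, adjusted p = 0.383 in edgeR's quasi-likelihood test). Idua shares exon sequence with Dgkq and Slc26a1, and the strand setting of the counting is not given, so its count is uncertain.

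Asah1, acid ceramidase, was the one hydrolase outside the cathepsins whose groups did not overlap upwards. It stood at 132, 135 and 148 CPM in the knockout-labelled libraries and at 113, 116 and 101 CPM in wild type. Asah1 had a log2 fold change of 0.33 (SE 0.12, adjusted p = 0.270 in edgeR's quasi-likelihood test) and 0.21 after GC correction, with an adjusted p between 0.124 and 0.690 over the alternatives. The other enzymes of heparan and dermatan sulfate breakdown had log2 fold changes of -0.25 for Sgsh, -0.19 for Arsb and -0.12 for Ids, none with groups apart. Psap stood at 5004, 3356 and 3705 CPM in the knockout-labelled libraries and at 4287, 5517 and 4465 CPM in wild type, a log2 fold change of -0.24 with overlapping groups. Gaa, the acid glucosidase that degrades glycogen, had 253 ± 43.4 and 293 ± 45.5 CPM, and Hexa 238 ± 35.2 and 263 ± 25.5 CPM (SD, n = 3 each), with overlapping groups. The log2 fold changes of Arsa, Neu1, Gla, Glb1, Gusb, Galc, Man2b1, Ppt1 and Lipa ran from -0.29 for Arsa, which removes sulfate from sulfatide, to 0.11 for Lipa, the acid lipase that frees cholesterol from its esters. Tpp1, a peptidase mutated in a childhood neuronal ceroid lipofuscinosis, had 297 ± 22.6 and 294 ± 8.89 CPM (SD, n = 3 each), which makes a log2 fold change of 0.01.

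Among the membrane proteins, Cln3 was the one with an unadjusted p under 0.05. It encodes a lysosomal transmembrane protein whose loss causes juvenile neuronal ceroid lipofuscinosis with retinal degeneration. It stood at 36.1, 29.3 and 33.6 CPM in the knockout-labelled libraries and at 44.3, 49.9 and 40.7 CPM in wild type. All knockout-labelled values lay below all wild-type values, with a log2 fold change of -0.45 (SE 0.15, unadjusted p = 0.0134, adjusted p = 0.240 in edgeR's quasi-likelihood test). After GC correction the log2 fold change was -0.43. Cln3 shares exon sequence with Apobr, which leaves its count uncertain for the reason given for Idua. Its promoter holds the palindrome TCACGTGA shown above.

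Lamp2, whose protein takes part in lysosome fusion and chaperone-mediated autophagy, stood at 442, 577 and 474 CPM in the knockout-labelled libraries and at 439, 412 and 343 CPM in wild type. The groups did not overlap, but knockout-labelled animal 1 and wild-type animal 1 were nearly level. The log2 fold change was 0.32 (SE 0.16, adjusted p = 0.404 in edgeR's quasi-likelihood test) and 0.15 after GC correction, its transcript being poor in GC at 38.7%. Its partner Lamp1 had 516 ± 16.3 and 536 ± 56.5 CPM (SD, n = 3 each), which makes a log2 fold change of -0.06. Mcoln1, the calcium channel through which lysosomes signal to TFEB, had a log2 fold change of -0.11, and Scarb2, the receptor that carries glucocerebrosidase to lysosomes, one of -0.19. Cd63, a tetraspanin of late endosomes, had 67.3 ± 12.7 and 78.4 ± 13.8 CPM (SD, n = 3 each). Its count is uncertain, because 73.2% of its transcript is near-identical to the pseudogene Cd63-ps.

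The autophagy genes lay around 0, 4 above and 5 below, and their median log2 fold change was -0.00. Map1lc3a, one of the LC3 proteins that are attached to autophagosome membranes, was the one in its class with an unadjusted p under 0.05 or groups apart. It stood at 83.4, 72.4 and 76.0 CPM in the knockout-labelled libraries and at 85.5, 106 and 120 CPM in wild type. The groups did not overlap, with wild-type animal 1 just above knockout-labelled animal 1. The log2 fold change was -0.42 (SE 0.14, unadjusted p = 0.0155, adjusted p = 0.247 in edgeR's quasi-likelihood test). After GC correction it was -0.06 (adjusted p = 0.901 in edgeR's quasi-likelihood test), and the GC content of the transcript is 63.1%.

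The closely related Map1lc3b had 268 ± 15.1 CPM in knockout-labelled and 268 ± 7.48 CPM in wild-type libraries (SD, n = 3 each). Sqstm1 had 509 ± 28.2 and 510 ± 45.0 CPM (SD, n = 3 each), also level between the groups. Atg5, part of the complex that conjugates LC3 to lipid, had the highest log2 fold change of the 48 genes at 0.44 (SE 0.27, adjusted p = 0.500 in edgeR's quasi-likelihood test). It rested on knockout-labelled animal 2: the values were 21.4, 47.4 and 26.9 CPM in the knockout-labelled libraries and 24.0, 21.6 and 24.8 CPM in wild type, with overlapping groups. Becn1, a subunit of the lipid kinase that starts autophagosomes, had a log2 fold change of -0.05. Ulk1, the kinase under mTOR control, had -0.17, Atg7, which activates the conjugation reactions, -0.21, and Atg12, which is joined to ATG5, 0.08.

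**Figure D3:**
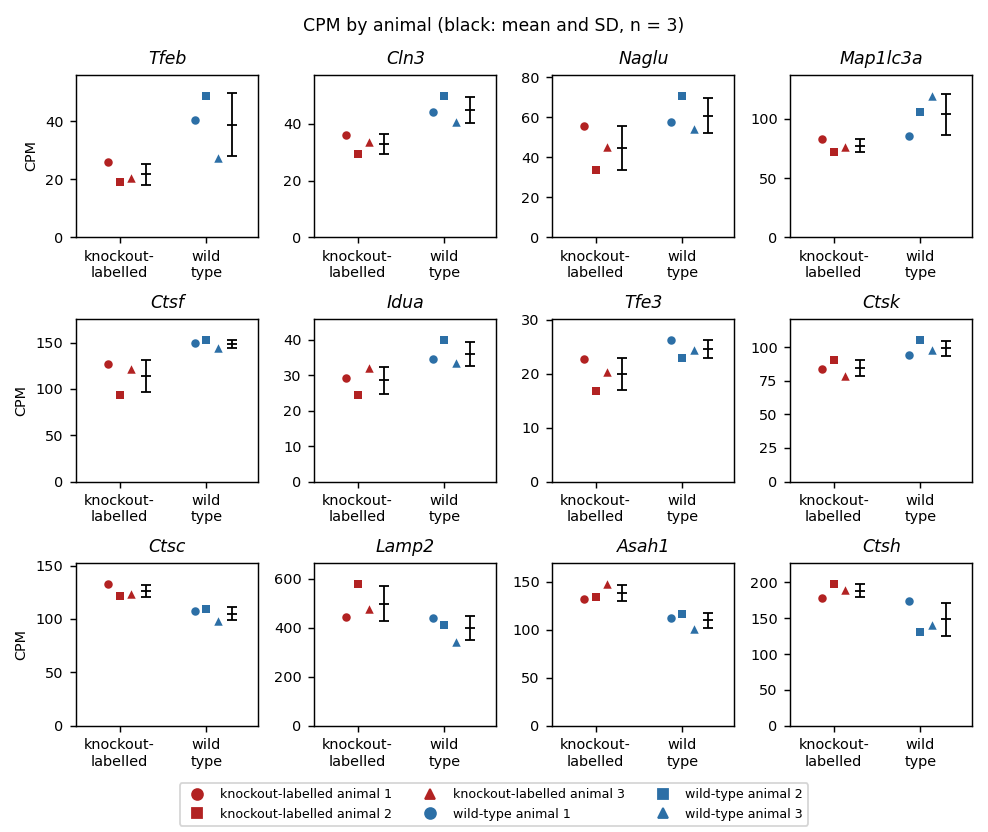
CPM of the 12 genes with non-overlapping groups or an unadjusted p under 0.05, one point per animal, with mean and SD (n = 3) as black bars and every axis starting at 0. The top rows show the 8 genes with a lower knockout-labelled mean, such as Tfeb at 21.7 against 38.8 CPM, and the bottom row the 4 with a higher one, such as Ctsh at 188 against 148 CPM.

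A further 155 lysosome and autophagy genes, chosen by function, were all tested. None passed the adjusted threshold in edgeR's quasi-likelihood test, 14 were higher and 5 lower at an unadjusted p under 0.05 (12.3% against 14.2% of all genes), and their median log2 fold change was -0.01. At an adjusted p under 0.05, DESeq2 and edgeR's exact test each called Bnip3l and Mtor of the 155, and limma-voom called none. The shares of all genes called were 3.25%, 2.26% and 0.0823% in the same order. Mtor, the kinase that holds TFEB in the cytoplasm when nutrients are present, stood at 106, 85.1 and 106 CPM in the knockout-labelled libraries and at 181, 161 and 139 CPM in wild type, with groups apart. Its log2 fold change was -0.70 (SE 0.15, adjusted p = 0.132 in edgeR's quasi-likelihood test, 0.00237 in DESeq2) and -0.60 after GC correction. Bnip3l, a receptor for the removal of mitochondria, stood at 141, 126 and 112 CPM and at 83.4, 81.7 and 82.6 CPM, also with groups apart. Its log2 fold change was 0.62 (SE 0.12, adjusted p = 0.126 in edgeR's quasi-likelihood test, 0.00308 in DESeq2).

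Non-overlapping groups were found for 38 of these 155 (24.5%, against 20.0% of all genes), 23 higher and 15 lower, and among these were the remaining 6 with the smallest p. Those higher in the knockout-labelled libraries were the mitophagy receptor gene Fundc1 (log2 fold change 0.46), the mannose 6-phosphate receptor gene M6pr (0.42), the proton pump subunit gene Atp6v1d (0.41), the hydrolase gene Ggh (0.57) and the acid phosphatase gene Acp5 (0.54). Smpd1, acid sphingomyelinase, was lower (-0.51). Their adjusted p ran from 0.190 to 0.269 in edgeR's quasi-likelihood test. Of the 17 proton pump genes, 12 lay above 0 and 5 below, and the median log2 fold change was 0.09.

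Read by promoter, 11 of the 12 genes with TCACGTG in the window had a log2 fold change below 0, the exception being Ctsd, and their median was -0.19. Of the 30 genes with a window but without the motif, 17 lay below 0 and 13 above, with a median of -0.06. The genes with the motif had the higher median GC content, 53.8% against 51.2%. After GC correction 9 of the 12 lay below 0 with a median of -0.10, and of the other 30 genes 18 did, with a median of -0.01. Of the 12 genes with the motif, Cln3 alone had groups apart, against 20.0% of all genes. Before GC correction, 7711 of all 15796 genes tested had a log2 fold change below 0. The difference between these sets was not tested, and the motif was chosen after the fold changes had been seen.

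Fold changes followed the GC content of the transcripts. Across the 48 genes Spearman's rho of log2 fold change with GC content was -0.61, and across the 15639 genes with a known sequence it was -0.33. These are descriptions across genes, which share the 6 libraries and are not independent replicates. The 4 higher genes described above had a GC content of 38.7% to 50.1% and the 8 lower ones of 48.9% to 63.2%. After a correction that removes the trend with GC content in each library, the median log2 fold change of the 48 genes was -0.03 (all genes 0.02), and 38 of the 48 kept their sign.

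**Figure D4:**
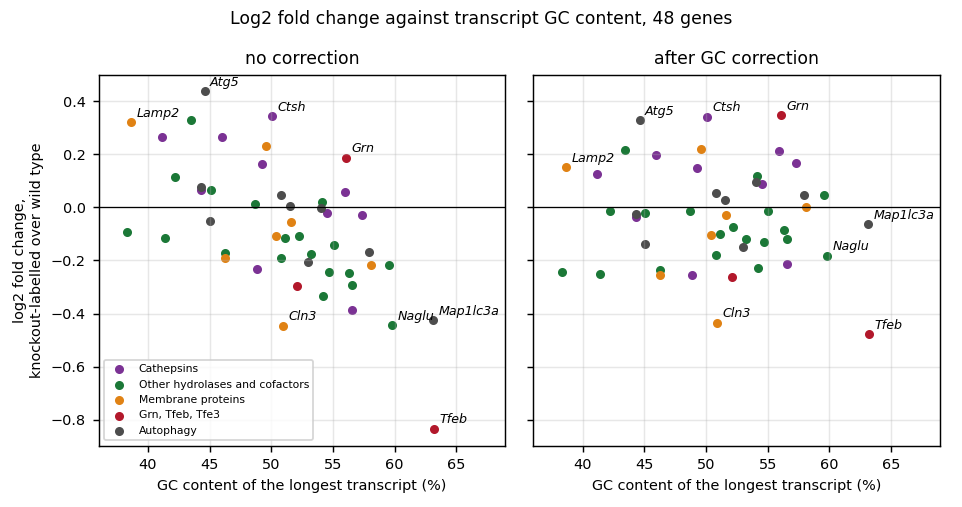
Log2 fold change of the 48 genes against the GC content of the longest transcript, before (left) and after (right) correction for GC content, coloured by class. Uncorrected values slope down from Lamp2 (38.7% GC, 0.32) to Tfeb (63.2% GC, -0.83), and after correction Map1lc3a lies at -0.06 while Cln3 is at -0.43.

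Within each group the 48 genes shifted together from animal to animal. Knockout-labelled animal 1 had the highest value of its group for 34 of the 48 genes (70.8%, against 37.1% of all genes), and knockout-labelled animal 2 the lowest for 27 (56.3% against 35.9%). Wild-type animal 2 was the highest of its group for 34 genes (70.8% against 31.1%) and wild-type animal 3 the lowest for 34 (70.8% against 35.0%). On the log2 scale, the mean deviation of the 48 genes from the mean over 6 libraries was 0.09, -0.13 and -0.08 in the knockout-labelled and 0.06, 0.15 and -0.10 in the wild-type libraries. The groups thus overlapped. The hydrolases outside the cathepsins ran from -0.21 in knockout-labelled animal 2 to 0.20 in wild-type animal 2, and the autophagy genes from -0.13 to 0.04, in another order of animals.

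The RPE markers shared part of that order: 9 of 10 were highest in knockout-labelled animal 1 within its group and 10 of 10 in wild-type animal 2. Of these markers, 8 lay below 0 and 2 above in the comparison of genotypes, with overlapping groups and a median log2 fold change of -0.31. The summed level of the 8 pigment cell markers was lowest in wild-type animal 3, at 5846 CPM against 8162 to 9793 CPM in the other libraries, and Gpnmb was lowest there too. Taken singly, 7 of the 8 were lowest in that animal, and Oca2 was lowest in knockout-labelled animal 2. Cornea and conjunctiva markers summed to 3541 to 15140 CPM in knockout-labelled and 2542 to 6139 CPM in wild-type libraries, and rod markers to 11023 to 12517 and 7610 to 16501 CPM. Other lists did not overlap in summed level between knockout-labelled and wild-type libraries. The endothelial (516 to 795 against 846 to 895 CPM) and fibroblast markers (8430 to 8933 against 9587 to 11509 CPM) were lower. Higher were the neutrophil (57.7 to 126 against 6.25 to 12.6 CPM) and erythroid markers (55.8 to 1075 against 4.28 to 33.6 CPM). Narrowly higher were the osteoclast and bone markers (37.5 to 45.6 against 22.8 to 37.2 CPM). The part that tissue makeup has in the levels of the 48 genes was not tested.

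**Figure D5:**
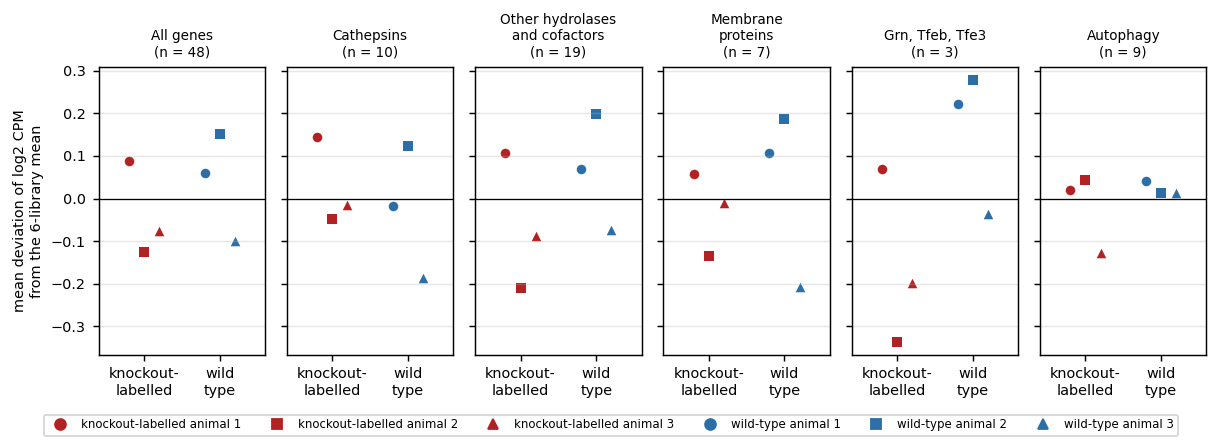
Mean deviation of log2 CPM from the mean over the 6 libraries, for all 48 genes and for each class, one point per animal. Knockout-labelled animal 1 (0.09) and wild-type animal 2 (0.15) are the highest of their groups over all genes, while knockout-labelled animal 2 (-0.13) and wild-type animal 3 (-0.10) are the lowest, and the groups overlap.

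In the authors' deposited table, with the sign turned so that positive means higher in the knockout-labelled libraries, Tfeb had a log2 fold change of -0.80 and an FDR of 0.0396. It was the 1 gene of the 48 at an FDR under 0.05 in the authors' deposited table, in which 392 of 16561 genes (2.37%) were. At an unadjusted p under 0.05 the authors' deposited table held 4 of the 48, namely Tfeb, Cln3, Naglu and Map1lc3a, which is 8.33% against 11.8% of all genes listed there. In sign, 45 of the 48 genes matched the values computed here, and the others, Ctsa, Sqstm1 and Map1lc3b, lay close to 0.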

How the data were processed

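Gene counts per animal were deposited by the authors, who used TopHat, Bowtie and HTSeq with mm10, per the submitters' processing notes. For versions, annotation and strand setting the sources used here give nothing. A second table deposited by the authors holds edgeR log2 fold changes, log2 CPM and p-values with FDR. The 5 tally rows of the count table were left out.

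Here, genes with at least 10 counts in enough libraries and 15 in all were fitted with edgeR 4.0.16 (TMM factors, quasi-likelihood test, Benjamini-Hochberg adjustment over all 15796 genes), on R 4.3.3. The fit was tested on simulated data with less variation between animals than these data, whose common biological coefficient of variation was 0.28. That test therefore does not show how many changes would be found here. Alternatives used limma 3.58.1, DESeq2 1.42.0, other scalings and filters, a GC correction (lowess per library, span 0.3), a sex term, a replicate block and each library left out. RPKM used union exon lengths of GENCODE M21. Near-identical copies were sought with blastn 2.17.0 (98% identity over 100 bases).

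The genes, lists and motifs were chosen with earlier results of these data known. Values in every library and tests are given for genes with an unadjusted p under 0.05 or non-overlapping groups, and levels per length for the highest of each class. Of the 48 genes, 15 share exon sequence with another coding gene. Labels describe the replicates as separate animals, and all library pairs differed beyond counting noise.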

Additional observations from a re-analysis of the deposited data

Results flagged for a closer look

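The tally rows of the count table, which no comparison above uses, hold the reads with no unique alignment. Their share was 23.9% ± 1.08 in the knockout-labelled and 19.0% ± 0.330 in the wild-type libraries (SD, n = 3 each). It was taken of the sum of all rows of the count table, tally rows included, in which unaligned reads stood at 0. The ranges of 22.9% to 25.1% and 18.7% to 19.4% did not overlap (exact permutation test, two-sided p = 0.1, the smallest that 3 against 3 allows). The share is given here because its ranges did not overlap, so that p was fixed in advance. Among the 48 genes, Cd63 has a near-identical pseudogene over 73.2% of its transcript. The part of this share in the value of Cd63 was not tested.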

How the results depend on the processing

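Over all genes, 8 passed the adjusted threshold in edgeR's quasi-likelihood test. That count was 15 with upper-quartile factors, 22 with no filter, 16 with a CPM of at least 1 in 3 libraries, 13 in limma-voom, 357 in the exact test, 493 in DESeq2, 1 with sex as a covariate and 30 at an adjusted p under 0.1. Leaving out each library in turn gave 0 to 795, with 795 without knockout-labelled animal 1. By Xist against Y-linked transcripts, animal 1 of each group read as female and the others as male. The fit without knockout-labelled animal 1 thus held no knockout-labelled female. Of the 48 genes, 0 passed, and 1 did in DESeq2 (Tfeb). Of the 155 others, 0 passed. In DESeq2 and in the exact test 2 did (Bnip3l and Mtor), against 3.25% and 2.26% of all genes. With a library left out 0 to 5 did. The 5 without knockout-labelled animal 1, where 795 of all genes passed, were Bnip3l, Dnase2a, Mtor, Pik3c3 and Smpd1. With a library left out, the median log2 fold change of the 48 ran from -0.17 without knockout-labelled animal 1 to -0.03 without wild-type animal 2. In the first of these fits, 15 of the 48 had an unadjusted p under 0.05 in edgeR's quasi-likelihood test, as did 3699 of all genes (23.0%). Of the 15, 4 were higher and 11 lower, and the split of all genes by direction was not computed for that fit. The causes were not tested.

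Same-numbered animals did not deviate together (correlations of -0.096, -0.092 and -0.067 over 15796 genes). These correlations cannot settle whether the numbers pair the animals, because deviations were taken from means of only 3 animals. Sex as read from transcripts followed the numbers, animal 1 being female in each group. With a replicate block 1 gene passed overall and 1 with GC correction and block together. The median of the 48 genes was -0.10 with the block and -0.02 with both, and 4 and 2 of them had an unadjusted p under 0.05 (10.1% and 8.72% of all genes). With 3 animals a group, small differences were not detectable.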
